A study of Mus musculus with 5 samples.

Results

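The 34 genes described here take part in the antioxidant response, in the breakdown of heme and in the handling of iron. They were chosen by symbol from a list of such genes, among 24419 gene rows, and all 34 were found. Sema3G is a secreted semaphorin, and the RNA-seq asked which genes it changes in activated macrophages. Bone marrow cells of C57BL/6 mice (C57BL6/J in the series' design) were grown for 5 days with M-CSF at 50 ng/ml into bone marrow-derived macrophages (BMMs), and every sample was activated with LPS at 100 ng/ml. BMMs then stayed for 18 h in PBS (2 libraries, the controls) or in Sema3G at 100 ng/ml (3 libraries). The study's methods describe recombinant Sema3G as an Fc-tagged protein purified from transfected 293T cells, a human kidney line, and the control was PBS alone by its treatment label, while the sample titles call it no treatment. No BMMs without LPS were analysed here, so each level below is that of LPS-treated cells. The labels do not say that the 5 samples came from separate cultures or mice. The p-values rest only on the spread between these samples, and the fits estimate that spread with the help of all genes.

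NRF2, encoded by Nfe2l2, is the transcription factor at the centre of the antioxidant response. KEAP1 holds NRF2 in the cytosol and hands it to a ubiquitin ligase, and oxidants that modify KEAP1 free NRF2 to enter the nucleus. There it pairs with a small MAF protein such as MAFG on antioxidant response elements (AREs) and drives genes for glutathione synthesis, thioredoxin reduction, NADPH-dependent detoxification and heme breakdown. In macrophages this programme is linked to iron, because heme oxygenase 1, encoded by Hmox1, releases iron from heme, and the iron is stored in ferritin or exported by ferroportin, encoded by Slc40a1. LPS is known to induce Sod2, Hmox1 and cystine import in macrophages.

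Each library counted RNA 3′ ends with unique molecular identifiers (UMIs), so that PCR copies of a molecule count once and a level does not scale with the length of the RNA. The deposited value is CPM, which is the UMI count relative to all UMIs of the library. Library totals were between 1798469 and 2215855 UMIs, and 3 UMIs correspond to 1.35 to 1.67 CPM. Rn45s, the gene of the ribosomal RNA precursor, made up 1.01% and 3.19% of all UMIs in PBS replicates 1 and 2, and 6.31%, 7.40% and 7.88% in Sema3G replicates 1, 2 and 3. The share of UMIs that lay on listed genes, Rn45s among them, also differed, from 77.6% and 75.6% in PBS replicates 1 and 2 to 71.3%, 67.1% and 65.9% in Sema3G replicates 1 to 3. The median log2 fold change of all genes tested was -0.22, and after scaling by TMM, a method that sets the bulk of the genes to no change, it was -0.020. The part of Rn45s and of the UMIs outside listed genes in the results below was not tested.

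All 8 macrophage markers were detected, with summed levels of 9761 to 12570 CPM with PBS and 8860 to 9518 CPM with Sema3G, although Mertk had 0 to 5 UMIs in a library. Red cell precursors are rich in heme and iron, but 6 of 8 erythroid markers were at 0 in every library and their summed level was 0 to 3.34 CPM. In the same way 4 of 6 dendritic cell markers, 5 of 6 lymphoid markers and 4 of 5 mast cell and basophil markers were at 0 in every library. Of 6 listed neutrophil markers S100a8 held nearly all the UMIs, with 102 to 165 CPM, and the 6 stromal markers summed to 10.7 to 28.0 CPM.

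Sequence elements known to tie these genes together, AREs in promoters and iron-responsive elements in RNAs, are shown before the values. The core letters searched for an ARE were TGACNNNGC, on both strands of the promoters in RefSeq (GRCm38.p6), each running from 250 bases before to 50 bases after a start site. Promoters were found for 28 members, and 9 of these genes (32.1%) had a match in at least 1 promoter, against 14.0% of all 27025 genes with a promoter. Hmox1, Gclc, Gsr, Prdx6, Slc40a1 and Slc11a2 were not in the promoter table. The 9 matches follow in the direction of the gene, each with 10 bases on either side and the match in capitals. A match on the opposite strand reads GCNNNGTCA.
Nfe2l2, chr2:75704885-75704913, minus strand: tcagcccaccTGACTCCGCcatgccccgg
Mafg, chr11:120633751-120633779, minus strand: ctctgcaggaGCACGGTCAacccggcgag
Gclm, chr3:122245413-122245441, plus strand: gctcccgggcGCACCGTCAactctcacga
Txnrd1, chr10:82859104-82859132, plus strand: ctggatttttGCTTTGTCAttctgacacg
Srxn1, chr2:152105542-152105570, plus strand: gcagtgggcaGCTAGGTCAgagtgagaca
Prdx1, chr4:116685456-116685484, plus strand: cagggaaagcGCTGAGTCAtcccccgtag
Sod1, chr16:90220696-90220724, plus strand: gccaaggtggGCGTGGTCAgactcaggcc
Mgst1, chr6:138140461-138140489, plus strand: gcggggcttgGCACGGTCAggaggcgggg
Blvra, chr2:127070598-127070626, plus strand: cacgggaattGCTCGGTCAaggctccgcc
Relative to the start site the matches of Gclm and Txnrd1 lay at -134 and -92, and that of Srxn1 lay at 28. A match of these letters is a description and shows no binding.

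For Gclm and Txnrd1, the members that passed after TMM scaling, the 250 bases before the start site are shown, with the matched letters in capitals.
Gclm, chr3:122245307-122245556, plus strand: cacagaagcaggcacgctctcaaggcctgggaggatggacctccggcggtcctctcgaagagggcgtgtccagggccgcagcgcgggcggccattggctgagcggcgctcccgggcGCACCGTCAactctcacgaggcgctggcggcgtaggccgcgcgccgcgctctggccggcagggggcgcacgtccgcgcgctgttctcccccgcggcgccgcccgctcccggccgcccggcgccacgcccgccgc
Txnrd1, chr10:82858956-82859205, plus strand: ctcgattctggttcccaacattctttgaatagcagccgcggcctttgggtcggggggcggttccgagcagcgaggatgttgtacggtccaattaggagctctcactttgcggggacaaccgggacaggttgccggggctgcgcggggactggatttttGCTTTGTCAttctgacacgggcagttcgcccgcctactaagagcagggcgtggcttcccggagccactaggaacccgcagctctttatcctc
The Txnrd1 window belongs to 1 of 3 start sites that RefSeq lists for this gene, and the other 2 windows held no match.

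Some of the iron members carry an RNA element. Iron regulatory proteins bind the iron-responsive element, a hairpin with the loop CAGTGN, and block translation when it stands in the 5′ UTR or shield the RNA from decay when it stands in the 3′ UTR. A search of GENCODE M21 transcripts for this loop (N being A, C or T) on a paired helix found it in 4 of the 34 members, Fth1, Ftl1, Slc40a1 and Tfrc, against 70 of 21877 protein-coding genes (0.320%). The sites are given on GRCm38 as 30 bases of the RNA's DNA sequence, with the loop in capitals.
Fth1, 5′ UTR, chr19:9982731-9982760, plus strand: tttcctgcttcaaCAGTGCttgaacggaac
Ftl1, 5′ UTR, chr7:45459779-45459808, minus strand: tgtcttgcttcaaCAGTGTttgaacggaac
Slc40a1, 5′ UTR, chr1:45925465-45925494, minus strand: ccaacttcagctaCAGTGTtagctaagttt
Tfrc, 3′ UTR, chr16:32631218-32631247, plus strand: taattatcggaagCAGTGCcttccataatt
Tfrc, 3′ UTR, chr16:32631597-32631626, plus strand: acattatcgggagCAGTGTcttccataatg
Tfrc, 3′ UTR, chr16:32631662-32631691, plus strand: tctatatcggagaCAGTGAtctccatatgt
Tfrc, 3′ UTR, chr16:32631709-32631738, plus strand: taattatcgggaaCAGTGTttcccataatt
The search thus found the element before the coding sequence of ferritin and ferroportin, and 4 copies behind that of the transferrin receptor. Elements with another loop or with mismatches in the helix would be missed, so further copies or further members with one are not excluded.

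The members spanned mean levels from 2.46 CPM for Gpx4 to 21391 CPM for Fth1. Fth1 was the third most abundant gene row of the whole table, and Prdx1, Ftl1, Sod2 and Gpx1 ranked 21, 28, 64 and 93. Together the members held 4.98% and 4.51% of the UMIs on listed genes with PBS, and 4.31%, 3.96% and 3.82% with Sema3G. Ferritin, which is Fth1 and Ftl1, made up 73.8% to 75.6% of the members' UMIs in every library.

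**Figure D1:**
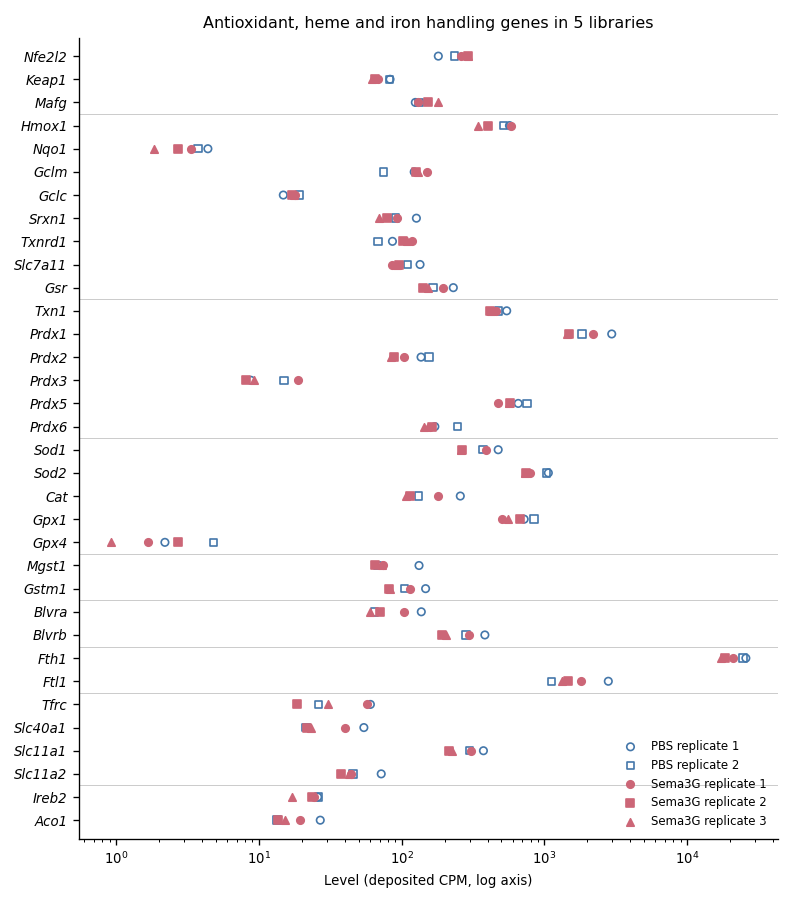
Level of the 34 genes in each library, as deposited CPM on a log axis, in the order of their roles with grey lines between role groups; open blue symbols are the 2 PBS libraries and filled red symbols the 3 Sema3G libraries. Fth1 stands far to the right with a mean of 21391 CPM and Gpx4 and Nqo1 stand below 5 CPM, and within a gene the libraries differ far less than the genes differ from each other.

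With Sema3G, 5 members were higher and 29 were lower than with PBS by sign, and none of the 34 passed an adjusted p of 0.05 in either direction. This is from limma on log2(CPM + 1) with Benjamini-Hochberg adjustment over the 10088 genes whose mean reached 1 CPM, a set that includes all 34 members, and in which 1.59% were called higher (160 genes) and 0.218% lower (22 genes). At an unadjusted p below 0.05, 3 members were higher and 7 lower, beside 6.83% and 14.2% of all genes. The members' median log2 fold change was -0.40, with a range of -0.69 to 0.51, where the median of all genes tested was -0.22 and 67.5% of them were lower. Relative to that median, 28 members were below and 6 above. After TMM scaling 6 members were higher and 28 lower with a median of -0.18, and 2 members passed the adjusted p, both higher, while 3.35% of 10444 genes were called higher (350 genes) and 0.0287% lower (3 genes). On the UMI counts, edgeR's quasi-likelihood test called 2 of the 32 members it tested, both higher, beside 4.63% of genes called higher and 0.0366% lower. DESeq2 called 1 member, higher, beside 3.09% of genes higher and 0.0132% lower. The members that passed in these fits were Gclm and Txnrd1, and only Txnrd1 in DESeq2. When CPM was taken over the listed genes without Rn45s, Nfe2l2 (0.74, limma adjusted p 0.0256) joined them, in a fit that called 4.62% of genes higher and 0.0095% lower. No member was called lower in any of these fits.

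**Figure D2:**
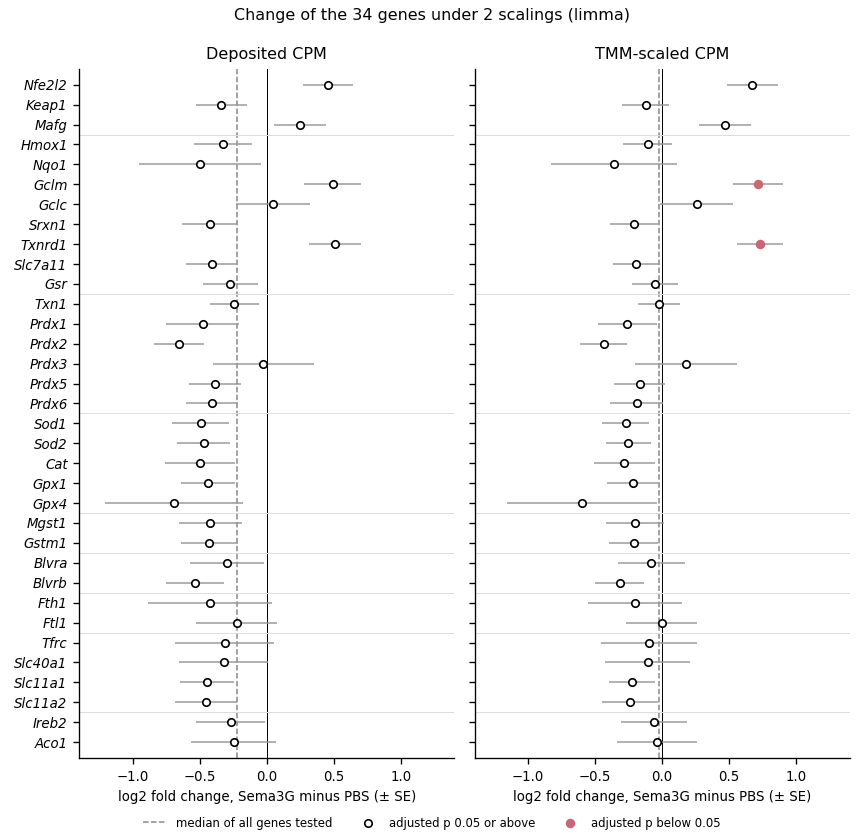
Log2 fold change, Sema3G minus PBS, of the 34 genes from limma on deposited CPM (left) and on TMM-scaled CPM (right); points are estimates, bars their standard errors, filled red points have an adjusted p below 0.05 and the dashed line is the median of all genes tested. On both scales Nfe2l2, Gclm and Txnrd1 lie farthest to the right, and Gclm and Txnrd1 pass after TMM scaling.

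In CPM, all 3 Sema3G libraries lay above both PBS libraries for 3 members (11.9% of all genes did so) and below both for 12 members (26.5% of all genes). The 3 higher members were Nfe2l2, Gclm and Txnrd1. The 12 lower ones were Keap1, Nqo1, Slc7a11, Txn1, Prdx2, Prdx5, Prdx6, Sod2, Gpx1, Fth1, Slc11a2 and Ireb2. After TMM scaling 4 members lay above, with Mafg added, where 17.8% of all genes did, and 6 lay below (Keap1, Nqo1, Slc7a11, Prdx2, Sod2 and Fth1), where 14.5% of all genes did. These libraries hold RNA of whole cultures, so fewer cells of a type and less RNA per cell cannot be told apart.

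Of the 3 genes of the NRF2 switch 2 were higher and 1 lower by sign, and none passed the adjusted p. Nfe2l2 (chr2:75675513-75704641, minus strand) had 180.8 and 233.9 CPM with PBS, and 262.4, 291.5 and 293.2 CPM with Sema3G. The means ± SD were 207 ± 37.6 (PBS, n = 2) and 282 ± 17.3 CPM (Sema3G, n = 3). The log2 fold change was 0.45 (standard error 0.19, 95% interval 0.06 to 0.85) with an adjusted p of 0.183 from limma. Each Sema3G library was above each PBS library, but the PBS libraries themselves stood apart, and leaving out PBS replicate 1 gave a log2 fold change of 0.27 and leaving out PBS replicate 2 gave 0.64. After TMM scaling Nfe2l2 had 0.67 with a limma adjusted p of 0.0638. On that scale it passed without Sema3G replicate 1 (0.80, limma adjusted p 0.0338), in a fit that called 497 of 10457 genes higher. It did not pass without Sema3G replicate 2 or 3 (limma adjusted p 0.303 and 0.252). With only 1 PBS library kept, the log2 fold change of Nfe2l2 was 0.93 without PBS replicate 2 and 0.42 without PBS replicate 1. Keap1 (chr9:21229730-21239361, minus strand), whose protein marks NRF2 for destruction, was on the other side of 0. It had 82.96 and 82.44 CPM with PBS, and 68.39, 64.99 and 62.23 CPM with Sema3G. Its log2 fold change was -0.34 (standard error 0.19, limma adjusted p 0.312). After TMM scaling it was -0.12, and Keap1 still did not overlap between the groups. Mafg, the small MAF partner of NRF2, had 124.7 and 132.8 CPM with PBS, and 130.7, 152.1 and 180.2 CPM with Sema3G, and the groups overlapped. Its log2 fold change was 0.25 in CPM and 0.47 after TMM scaling, with limma adjusted p values of 0.455 and 0.251, and in CPM it was 0.13 without Sema3G replicate 3. Exons of Mafg overlap those of Sirt7 on the same strand, so UMIs of these genes may not be fully separated.

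The share of Keap1 among the UMIs of Keap1 and Nfe2l2 does not depend on how a library is scaled. It was 31.5% (exact 95% binomial interval 27.3% to 35.8%) and 26.1% (22.6% to 29.8%) in the PBS libraries. In the Sema3G libraries it was 20.7% (17.5% to 24.2%), 18.2% (15.6% to 21.1%) and 17.5% (14.9% to 20.4%). The groups did not overlap, at 28.8% ± 3.82 (SD, n = 2) against 18.8% ± 1.66 (SD, n = 3), a difference of -9.95 percentage points. By exact permutation, two-sided, p was 0.2, the smallest that 2 libraries against 3 allow, and adjusted over the 6 shares tested p was 1. Intervals cover counting error only.

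Of the 8 NRF2-driven genes, 3 were higher and 5 lower by sign, and the higher ones were Txnrd1, Gclm and Gclc. Txnrd1 (chr10:82833951-82897712, plus strand) encodes thioredoxin reductase 1, which uses NADPH to reduce thioredoxin. It had 86.3 and 68.5 CPM with PBS, and 119.0, 102.0 and 109.7 CPM with Sema3G. The groups did not overlap, with means of 77.4 ± 12.5 CPM (SD, n = 2) and 110 ± 8.51 CPM (SD, n = 3), and the log2 fold change was 0.51 (standard error 0.19, 95% interval 0.11 to 0.92, limma adjusted p 0.152). After TMM scaling the levels were 104.1 and 92.7 with PBS, and 165.4, 155.5 and 171.4 with Sema3G, and Txnrd1 rose by 0.73 on the log2 scale (standard error 0.17, limma adjusted p 0.0253). The quasi-likelihood test gave 0.76 (adjusted p 0.0234) and DESeq2 0.73 (adjusted p 0.0447). On the TMM scale the limma adjusted p stayed below 0.05 without Sema3G replicate 1 (0.75, adjusted p 0.029), in a fit that called 497 of 10457 genes higher. It was 0.131 without Sema3G replicate 2 and 0.135 without Sema3G replicate 3. The log2 fold change was 0.83 without PBS replicate 1 and 0.64 without PBS replicate 2.

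Gclm (chr3:122245557-122270732, plus strand) encodes the modifier subunit of glutamate-cysteine ligase, the enzyme of the limiting step of glutathione synthesis. It had 122.5 and 74.9 CPM with PBS, and 150.1, 126.8 and 130.0 CPM with Sema3G. The lowest Sema3G library was only just above PBS replicate 1, and the PBS libraries differed by a ratio of 1.63 (1.32 to 2.03, 95% counting interval). The log2 fold change was 0.49 (standard error 0.21, limma adjusted p 0.199), 0.84 without PBS replicate 1 and 0.14 without PBS replicate 2. After TMM scaling Gclm rose by 0.71 (standard error 0.19, limma adjusted p 0.0467), and by 0.71 in the quasi-likelihood test (adjusted p 0.0492), while DESeq2 gave 0.68 with an adjusted p of 0.0788. On the TMM scale it was 0.997 without PBS replicate 1 and 0.43 without PBS replicate 2, and without a Sema3G library the limma adjusted p was 0.0627 to 0.181. Exons of Gclm overlap those of the predicted genes Gm17494 and Gm6061.

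Gclc encodes the catalytic subunit of the same ligase and was much scarcer, with 14.8 and 19.3 CPM in the PBS libraries and 17.8, 17.1 and 17.5 CPM in the Sema3G libraries. Its log2 fold change was 0.05 (95% interval -0.53 to 0.62). Of the UMIs of both subunits Gclc held 10.8% and 20.5% with PBS, and 10.6%, 11.9% and 11.9% with Sema3G. The groups overlapped (exact permutation p = 0.6), and PBS replicate 2 alone stood apart.

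The other NRF2-driven genes had lower means with Sema3G. Slc7a11, the cystine importer that feeds glutathione synthesis, had 134.6 and 109.7 CPM with PBS, and 85.6, 95.2 and 92.7 CPM with Sema3G, without overlap (log2 fold change -0.41, limma adjusted p 0.222). Hmox1, the heme oxygenase that LPS induces, had 569.2 and 515.0 CPM with PBS, and 579.4, 399.8 and 344.8 CPM with Sema3G. Sema3G replicate 1 had the highest Hmox1 level of all 5 libraries and the other Sema3G libraries had the lowest, and the log2 fold change of -0.33 had a 95% interval of -0.79 to 0.13. Srxn1, which repairs overoxidised peroxiredoxins, had 126.9 and 90.5 CPM with PBS, and 92.3, 78.5 and 69.1 CPM with Sema3G (log2 fold change -0.43, limma adjusted p 0.248). Gsr, the reductase that regenerates glutathione, lay between 141.7 and 230.2 CPM over all libraries, with a log2 fold change of -0.27. These values moved with the libraries kept. Without PBS replicate 1 the log2 fold changes were -0.27 for Slc7a11, -0.19 for Srxn1 and -0.040 for Gsr, and without PBS replicate 2 they were -0.56, -0.67 and -0.50. For Hmox1 it was -0.54 without Sema3G replicate 1 and -0.17 without Sema3G replicate 3. Nqo1, an NADPH-dependent quinone reductase and a widely used NRF2 readout, was barely detected. It had 8 and 7 UMIs with PBS, and 6, 6 and 4 UMIs with Sema3G, so its ratio per library total of 0.636 has a counting interval of 0.295 to 1.38 and no difference was detectable at this depth.

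**Figure D3:**
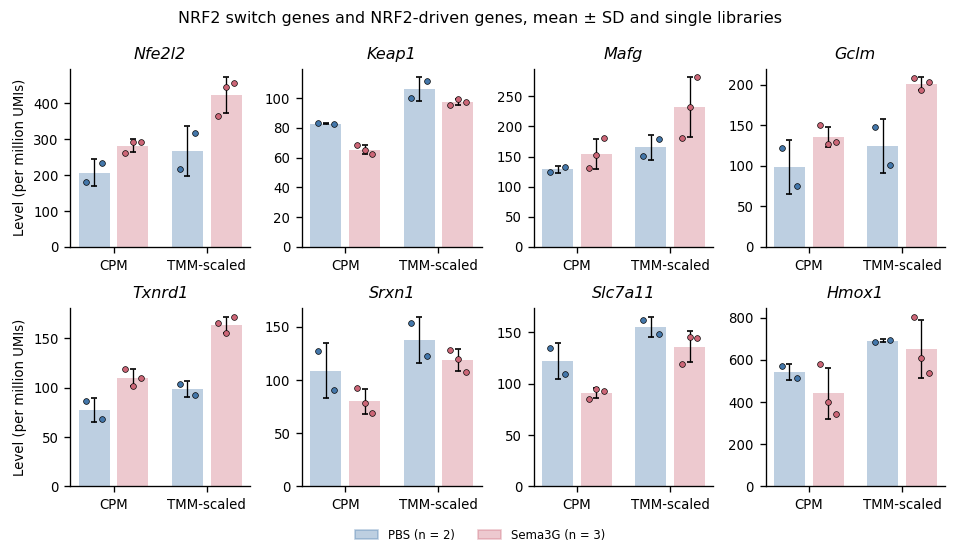
Levels of 3 NRF2 switch genes and 5 NRF2-driven genes, each panel with deposited CPM on the left and TMM-scaled CPM on the right; bars are means, error bars SD and points single libraries (blue PBS, n = 2; red Sema3G, n = 3). On both scales the Sema3G points of Nfe2l2, Gclm and Txnrd1 lie above the PBS points and those of Keap1 and Slc7a11 lie below, and Hmox1 overlaps.

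Thioredoxin and the peroxiredoxins, which break down peroxides with thiol groups, were lower by sign in 6 of 6 members, with a median log2 fold change of -0.40, and in 5 of 6 after TMM scaling, with a median of -0.18. Prdx2 (chr8:84969587-84974834, plus strand), a cytosolic peroxiredoxin, had the lowest adjusted p of the 34 members in limma on CPM with all 5 libraries, at 0.0844. It had 136.8 and 155.2 CPM with PBS, and 104.0, 88.9 and 84.8 CPM with Sema3G. The groups stood apart, with means of 146 ± 13.0 CPM (SD, n = 2) and 92.6 ± 10.1 CPM (SD, n = 3) and a log2 fold change of -0.65 (standard error 0.19, 95% interval -1.05 to -0.26). Without Sema3G replicate 1 it was -0.74 with a limma adjusted p of 0.0235, in a fit that called 3.01% of all genes higher and 5.49% lower, and after TMM scaling it was -0.44 with a limma adjusted p of 0.228. Exons of Prdx2 overlap those of Junb and Rnaseh2a on the opposite strand, and the sources used here do not say whether the counting used strand. Parts of the last 500 bases of Prdx2 also match 1 other gene, Tdpx-ps1.

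Prdx1, an abundant cytosolic peroxiredoxin, had 2963 and 1841 CPM with PBS, and 2184, 1494 and 1439 CPM with Sema3G, and the groups overlapped. Parts of the last 500 bases of Prdx1 match 2 other genes, Gm21399 and Gm7204, so its level is uncertain. Prdx5 had 656.0 and 753.7 CPM with PBS, and 474.8, 577.2 and 563.8 CPM with Sema3G. Prdx6, which uses glutathione in place of thioredoxin, had 170.9 and 247.3 CPM with PBS, and 157.9, 162.9 and 143.4 CPM with Sema3G. Neither Prdx5 nor Prdx6 overlapped between the groups in CPM, and both did after TMM scaling. Txn1, the thioredoxin that TXNRD1 reduces, had 544.5 and 475.9 CPM with PBS, and 454.8, 413.8 and 423.6 CPM with Sema3G. Its log2 fold change was -0.24 with a 95% interval of -0.63 to 0.15, next to the median of all genes, it was -0.14 without PBS replicate 1, and on the TMM scale it was -0.021. Prdx3, the mitochondrial peroxiredoxin, had 16 to 34 UMIs in a library and a log2 fold change of -0.03, which was 0.18 after TMM scaling.

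All 5 members that remove superoxide and peroxide had lower means with Sema3G, with a median log2 fold change of -0.49 in CPM and -0.27 after TMM scaling. Sod2, the mitochondrial superoxide dismutase that LPS induces, had 1066 and 1034 CPM with PBS, and 796.8, 744.2 and 729.3 CPM with Sema3G. These libraries agreed closely within each group and the groups did not overlap on either scale (log2 fold change -0.47, standard error 0.20, limma adjusted p 0.187). Parts of the last 500 bases of Sod2 transcripts match transcripts of 12 other genes over at least 75 bases. Where in those transcripts the matches lie was not read, so what they mean for the level of Sod2 is uncertain. Sod1, its cytosolic counterpart, had 474.7 and 372.6 CPM with PBS, and 389.2, 264.0 and 258.6 CPM with Sema3G (log2 fold change -0.49). The limma adjusted p of Sod1 was 0.195. Leaving out each library in turn gave -0.68 to -0.32, with a limma adjusted p of 0.0301 without Sema3G replicate 1, a fit that called 5.49% of all genes lower, and up to 0.557 in the others, and TMM scaling gave -0.27 (limma adjusted p 0.496). Sod2 held 69.2% and 73.5% of the UMIs of both dismutases with PBS, and 67.2%, 73.8% and 73.8% with Sema3G. Their means differed by 0.26 percentage points, less than the spread within either group (exact permutation p = 1).

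Cat, encoding catalase, had 257.7 and 131.7 CPM with PBS, and 179.0, 115.1 and 106.5 CPM with Sema3G. Its log2 fold change was -0.50, -0.98 without PBS replicate 2 (limma adjusted p 0.0496, with 1.7% of all genes called higher and 0.327% lower) and -0.019 without PBS replicate 1, so that it rests on which PBS library is kept. Gpx1, a cytosolic glutathione peroxidase, had 721.9 and 844.8 CPM with PBS, and 507.7, 672.9 and 560.5 CPM with Sema3G, without overlap (log2 fold change -0.44, limma adjusted p 0.224). Gpx4, which removes lipid peroxides and guards against ferroptosis, had 4 and 9 UMIs with PBS, and 3, 6 and 2 UMIs with Sema3G. With 13 against 11 UMIs in all, its ratio per library total of 0.505 has a counting interval of 0.205 to 1.22. Its last bases match other gene rows, among them Gpx4-ps2, so a low count of this gene is uncertain.

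The glutathione transferases Mgst1 and Gstm1 attach glutathione to reactive compounds, and their log2 fold changes were -0.42 and -0.43 with limma adjusted p values of 0.313 and 0.253. The groups overlapped for both genes, and for Mgst1 PBS replicate 1 had 132.4 CPM where the other 4 libraries had 65.4 to 74.0 CPM. Without PBS replicate 1 the log2 fold changes were 0.054 for Mgst1 and -0.19 for Gstm1, and without PBS replicate 2 they were -0.90 and -0.67. Blvra and Blvrb encode biliverdin reductases, enzymes that turn forms of biliverdin into bilirubin. Blvrb had 382.9 and 282.7 CPM with PBS, and 298.6, 190.9 and 204.2 CPM with Sema3G (log2 fold change -0.54, limma adjusted p 0.175). For Blvrb leaving out each library in turn gave -0.75 to -0.32, with a limma adjusted p of 0.0278 without Sema3G replicate 1, where 5.49% of all genes were called lower, and up to 0.564 in the others, and TMM scaling gave -0.32 (limma adjusted p 0.437). Blvra had 137.4 and 64.8 CPM with PBS, and 104.5, 70.9 and 60.4 CPM with Sema3G. Blvrb held 73.6% and 81.4% of the UMIs of this pair with PBS, and 74.1%, 72.9% and 77.2% with Sema3G, and the groups overlapped (exact permutation p = 0.6).

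Iron storage held most of the members' RNA. Fth1 (chr19:9980598-9985098, plus strand), the ferritin heavy chain with ferroxidase activity, had 25780 and 24635 CPM with PBS, and 20906, 18351 and 17283 CPM with Sema3G. Neither scale gave an overlap, and the log2 fold change was -0.42, with a limma standard error of 0.47 and a limma adjusted p of 0.612. The limma standard error takes in a variance trend over all genes, and the libraries lay closer within each group, with SDs of 810 CPM (PBS) and 1862 CPM (Sema3G). DESeq2 gave -0.21 with a standard error of 0.15 and an adjusted p of 0.684. Ftl1 (chr7:45457944-45459884, minus strand), the light chain, had 2804 and 1119 CPM with PBS, and 1795, 1464 and 1323 CPM with Sema3G. The PBS libraries enclosed all the Sema3G libraries, and the log2 fold change of -0.23 was 0.44 without PBS replicate 1. Fth1 therefore held 90.2% and 95.7% of ferritin UMIs with PBS, and 92.1%, 92.6% and 92.9% with Sema3G (exact permutation p = 0.8). The 95% binomial intervals of these shares were at most 0.6 points wide, far narrower than the gap between the PBS libraries. Parts of the last 500 bases of Ftl1 match transcripts of 12 other genes, and parts of those of Fth1 match 1 other gene, at 95% identity or more over at least 75 bases. The level of Ftl1 is therefore uncertain.

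The genes of iron transport and sensing were lower by sign in 6 of 6 members, and none passed the adjusted p. Tfrc, the transferrin receptor that takes up iron, had 60.4 and 26.2 CPM with PBS, and 57.3, 18.5 and 30.4 CPM with Sema3G. Slc40a1, the only known iron exporter, had 54.4 and 21.4 CPM with PBS, and 40.0, 21.7 and 23.0 CPM with Sema3G. In both genes the replicate 1 libraries were the highest of their group, and the log2 fold changes of -0.31 and -0.32 were 0.27 and 0.33 without PBS replicate 1. Slc40a1 held 47.4% and 44.9% of the UMIs of this pair with PBS, and 41.1%, 53.9% and 43.1% with Sema3G (exact permutation p = 1).

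Slc11a1, the NRAMP1 metal transporter of the phagosome, had 374.2 and 298.2 CPM with PBS, and 307.5, 213.0 and 225.0 CPM with Sema3G (log2 fold change -0.44, limma adjusted p 0.219). For Slc11a1 leaving out each library in turn gave -0.61 to -0.28, with a limma adjusted p of 0.0442 without Sema3G replicate 1, where again 5.49% of all genes were called lower, and up to 0.599 in the others, and TMM scaling gave -0.22 (limma adjusted p 0.576). Slc11a2, the DMT1 importer of ferrous iron, had 72.0 and 45.5 CPM with PBS, and 43.9, 37.9 and 42.9 CPM with Sema3G. Ireb2, which encodes iron regulatory protein 2, had 25.8 and 26.2 CPM with PBS, and 24.5, 23.5 and 17.1 CPM with Sema3G. Both lay without overlap in CPM and with overlap after TMM scaling. Aco1, which encodes cytosolic aconitase and iron regulatory protein 1, had 13.4 to 26.9 CPM over all libraries.

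**Figure D4:**
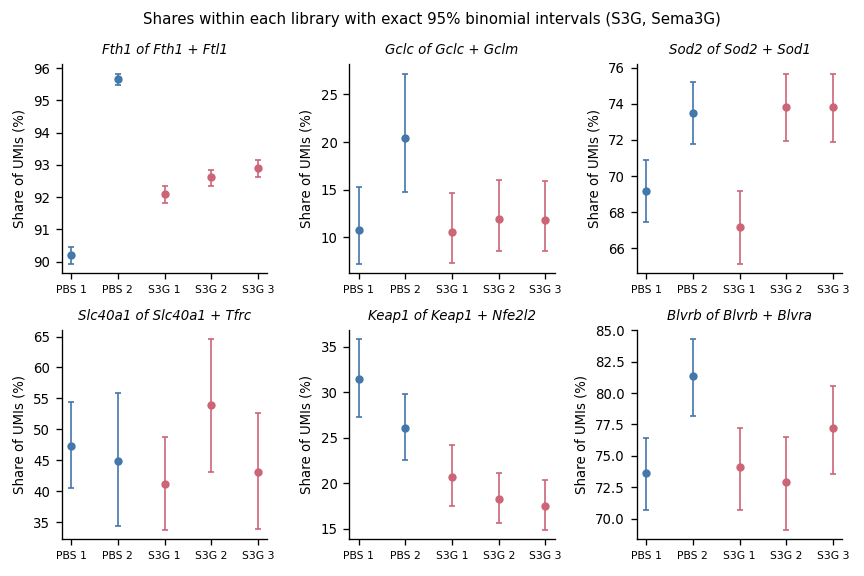
Share of the first gene in the UMIs of 6 gene pairs, in percent, for each library (blue PBS, red Sema3G), with exact 95% binomial intervals that cover counting error only; the axes do not start at 0. In the Keap1 and Nfe2l2 pair all 3 Sema3G libraries lie below both PBS libraries, and in the other 5 pairs the groups overlap.

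The PBS libraries differed beyond the 95% counting interval of their ratio in 24 of 34 members (70.6%), with PBS replicate 1 the higher in 20 of these. Of all 10088 genes tested, 2201 (21.8%) differed in this way, with PBS replicate 1 the higher in 1581 of them. Abundant genes have narrower intervals, and among genes with at least 100 UMIs over both PBS libraries it was 23 of 28 members (82.1%) and 36.4% of 3910 genes. For 15 of 34 members (44.1%) both replicate 1 libraries were above the other 3, which was so for 20.1% of all genes. Those members were Hmox1, Srxn1, Gsr, Prdx1, Sod1, Cat, Mgst1, Gstm1, Blvra, Blvrb, Ftl1, Tfrc, Slc40a1, Slc11a1 and Aco1, so they span heme breakdown, peroxide removal and iron. Among the 31 members with at least 20 UMIs in each of the 5 libraries, the level of PBS replicate 1 was between 0.691 and 2.54 times that of PBS replicate 2. Of the 8 macrophage markers 2 had this order and 6 did not. Those 2 were Fcgr1 and Cd68, and Cd68 had 655 and 337 CPM with PBS, and 425, 300 and 291 CPM with Sema3G. The part of macrophage content in these differences was not tested. The NRF2 switch genes and Txn1, the peroxiredoxins other than Prdx1, Sod2 and Gpx1 were not among the 15.

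**Figure D5:**
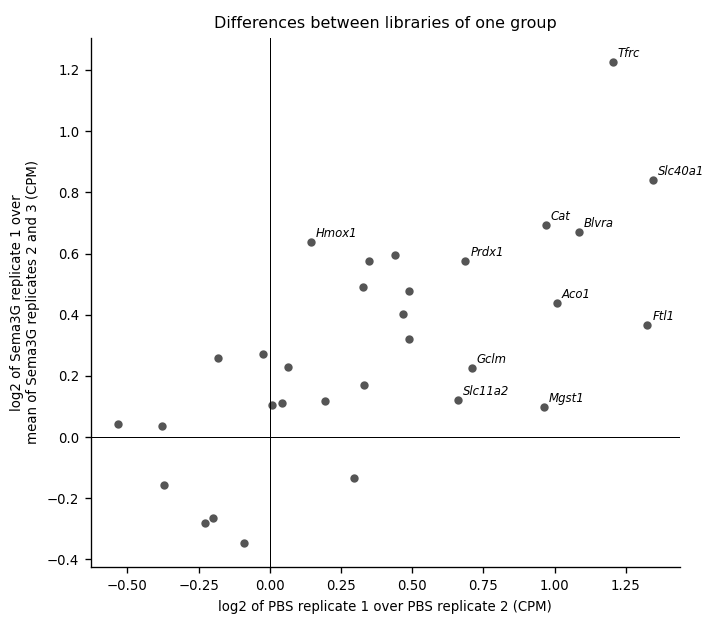
Log2 ratio of PBS replicate 1 to PBS replicate 2 (x axis) and of Sema3G replicate 1 to the mean of Sema3G replicates 2 and 3 (y axis), in CPM, for the 31 members with at least 20 UMIs in each library; each point is a gene and the most distant ones are named. Of these, 22 lie in the upper right, where both replicate 1 libraries are higher, and Tfrc and Slc40a1 lie farthest out.

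A wider list of 88 genes of the same pathways was read in the same fit. Of the 72 that could be tested, 10 were higher and 62 lower by sign with a median log2 fold change of -0.37, and 0 passed the adjusted p as higher and 1 as lower, where 1.59% and 0.218% of all genes did. At an unadjusted p below 0.05 in limma, 1 was higher and 22 were lower, beside 6.83% and 14.2% of all genes. After TMM scaling 21 were higher and 51 lower with a median of -0.17, and neither that fit, the quasi-likelihood test nor DESeq2 called any of them. The gene that passed was Alas1 (chr9:106233455-106248654, minus strand), the first and limiting enzyme of heme synthesis outside red cells. Alas1 had 93.4 and 112.4 CPM with PBS, and 58.9, 61.8 and 54.9 CPM with Sema3G. It fell by 0.80 on the log2 scale (standard error 0.20, 95% interval -1.21 to -0.39, limma adjusted p 0.0447), and its groups stood apart on both scales. After TMM scaling the value was -0.58 with a limma adjusted p of 0.125. In CPM Alas1 passed without Sema3G replicate 1 (-0.80, limma adjusted p 0.024), where 5.49% of all genes were called lower. The limma adjusted p was 0.212 without Sema3G replicate 2 and 0.241 without Sema3G replicate 3. The log2 fold change was -0.93 without PBS replicate 1 and -0.67 without PBS replicate 2.

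In limma on CPM with all 5 libraries none of the genes named next passed the adjusted p, and each had groups without overlap in CPM. Ncf4, a subunit of the phagocyte NADPH oxidase, the main source of superoxide in these cells, had a log2 fold change of -0.41, and leaving out each library in turn gave -0.55 to -0.26. Among the regulators of NRF2, Rbx1, a part of the ligase that KEAP1 recruits, had -0.48 and Sqstm1, which binds KEAP1, had -0.37. The microsomal glutathione transferases Mgst3 and Mgst2 had -0.94 and -0.70, and the mitochondrial thioredoxin Txn2 had -0.59. Leaving out each library in turn gave -1.18 to -0.58 for Mgst3 and -0.83 to -0.36 for Txn2. Mgst2 had 13.2 and 28.9 CPM with PBS, and 10.6, 13.1 and 11.5 CPM with Sema3G, so that PBS replicate 2 alone stood high. For Mgst2 the log2 fold change was -0.16 without PBS replicate 2 and -1.24 without PBS replicate 1, and its groups overlapped after TMM scaling. Slc25a37, the mitochondrial iron importer of the inner membrane, had 199.99 and 233.4 CPM with PBS, and 128.4, 157.5 and 153.0 CPM with Sema3G (log2 fold change -0.56, limma adjusted p 0.117). Sesn2, a stress-induced sestrin, was the gene on the other side of 0, with 1 and 3 UMIs with PBS against 5, 9 and 16 with Sema3G, a ratio per library total of 4.47 with a counting interval of 1.58 to 17.5 and a limma adjusted p of 0.135. Abcg2, Alad and Bdh2 had 13, 17 and 8 UMIs over the PBS libraries and 8, 13 and 2 over the Sema3G libraries, and their ratios were 0.367 (0.132 to 0.955), 0.456 (0.204 to 0.997) and 0.149 (0.0154 to 0.747).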

How the data were processed

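The authors made 3′ end libraries with UMIs from total RNA, mapped 75-base reads to mm10 and counted UMIs per gene with Strand NGS. Normalization and testing used edgeR (3.12 in the submitters' processing notes), and the sources used here give neither the counting settings nor the annotation. The deposited values are CPM, with columns of the authors' own comparison that were not used. All CPM values were whole multiples of 1 step per library within 0.01, which gave back the UMI counts.

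The 34 members and the list of 88 further genes were chosen with earlier results of these data known. In R (4.3.3), limma (3.58.1) was fitted to log2(CPM + 1) with its variance trend, for genes whose mean reached 1 CPM, and p-values were adjusted by Benjamini-Hochberg. Fold changes on this scale understate those of low genes. The recovered counts were also tested with DESeq2 (1.42.0) and with edgeR (4.0.16). The fits were also run on simulated counts, with changes larger than those of any member and the same dispersion for all genes. That run does not cover changes as small as those of the members. Named with values in every sample are members that passed in a fit without the replicate block, that did not overlap, that belong to the 5 most abundant or to the 6 pairs, or that had at most 3 UMIs in a library. Mafg, Hmox1 and Srxn1 were added after their values were seen. Named of the further genes are those that passed in CPM with all 5 libraries and up to 2 per role with the largest change without overlap. A result that this rule would name is not reported here. There were 14 alternatives, and 6 more were added after the data were seen. The last 500 bases of members' transcripts were compared with whole transcripts of other genes by blastn (2.17.0). Matches of at least 75 bases at 95% identity or more were found for 10 members. These were Mafg, Prdx1, Prdx2, Sod1, Sod2, Gpx4, Gstm1, Fth1, Ftl1 and Slc11a1.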

Additional observations from a re-analysis of the deposited data

How the results depend on the processing

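No member was called in either direction with a pseudocount of 0.1 or 5, with no filter or with a filter at a mean of 5 CPM. Members called higher numbered 2 after TMM scaling, 3 with CPM taken over listed genes without Rn45s (Nfe2l2, Gclm and Txnrd1), 2 in the quasi-likelihood test and 1 in DESeq2. Leaving out 1 library in turn gave 0 higher members each time, among 26 to 303 genes called higher, and 0 to 4 lower ones, among 0 to 553 genes called lower. On the TMM scale, added after the data were seen, it gave 0 to 2 higher members among 49 to 497 genes. Further genes called lower numbered 0 with a pseudocount of 0.1, with no filter and after TMM scaling. They also numbered 0 over listed genes without Rn45s, in the quasi-likelihood test and in DESeq2. Leaving out a Sema3G library gave 0 to 6, among 0 to 553 genes called lower. On the TMM scale it gave 0 to 1, among 0 to 34 genes called lower. Named after their values were seen, these were Alas1, Glrx, Esd, Msrb1, Rac2 and Hmox2 without Sema3G replicate 1, with Hmox2 (-0.62) also on the TMM scale. Lcn2 had a log2 fold change of -1.18 in CPM without PBS replicate 1.

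The replicate numbers are shared by the labels, but nothing says that a number marks a shared culture. Deviations from the group means correlated at 0.173 for the libraries numbered 1 and 0.111 for those numbered 2, and at 0.0973 for PBS replicate 2 with Sema3G replicate 3, which share no number. Deviations of the 2 PBS libraries mirror each other and those of the Sema3G libraries sum to 0. These correlations are therefore tied to each other and cannot decide whether the numbers mark pairs. A fit with the replicate block used the numbers 1 and 2 and has 1 residual degree of freedom. Of 10088 genes it called 298 higher and 275 lower. It called 0 members higher, 1 lower (Prdx2, -0.59) and 5 further genes lower (Alas1, Esd, Hmox2, Lrp1 and Slc25a37, at -0.75 to -0.54), and on the TMM scale 3 members higher (Nfe2l2, Gclm and Txnrd1, at 0.61 to 0.71) and 0 further genes lower, among 493 genes called higher and 31 lower of 10444.

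Signs that turned lay near 0 or rested on 1 library. Over listed genes without Rn45s, which puts the median of all genes at 0.043, the log2 fold changes were 0.017 for Gsr, 0.049 for Txn1, 0.24 for Prdx3, 0.066 for Ftl1, 0.0086 for Ireb2 and 0.031 for Aco1. Txn1 was 0.00097 in the quasi-likelihood test, and Prdx3 was 0.18 after TMM scaling, 0.21 in that test, 0.18 in DESeq2 and 0.11 with the block. Leaving out each library in turn, the log2 fold changes ranged from -0.13 to 0.22 for Gclc, -0.38 to 0.33 for Prdx3, -0.90 to 0.054 for Mgst1, -0.84 to 0.24 for Blvra, -0.89 to 0.44 for Ftl1, -0.90 to 0.27 for Tfrc, -0.98 to 0.33 for Slc40a1 and -0.72 to 0.23 for Aco1. The shares ranged in the same way, in percentage points, from -3.13 to 2.34 for Fth1 in ferritin, -8.99 to 0.66 for Gclc, -1.90 to 2.47 for Sod2, -4.03 to 2.36 for Slc40a1, -6.63 to 1.13 for Blvrb and -12.7 to -7.25 for Keap1. The cause of these changes was not tested. With 3 UMIs at 1.35 to 1.67 CPM, depth limits what can be seen of Nqo1 and Gpx4.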
